A study of Mus musculus with 54 samples.

Results

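Livers harvested at ZT20, in the dark phase, were compared with livers harvested at ZT8, in the light phase, in mice whose BMAL1 had been restored in the liver and in no other tissue (Liver-RE). ZT is the number of hours after lights on. The comparison used 6 of the 54 RNA-seq libraries of the study, 3 livers at ZT8 and 3 at ZT20, and the 11665 of 18079 listed genes with a mean of at least 0.5 FPKM over those 6 (reads scaled to transcript length and library depth). All mice were female C57BL/6J of 8 to 12 weeks, fed normal chow freely in 12 h of light and 12 h of dark. Besides Liver-RE, which carries the BMAL1-stop-FL construct on the knockout background, the study holds wild-type mice (WT) and BMAL1 knockout mice (KO), each with 3 livers at ZT0, 4, 8, 12, 16 and 20. In Liver-RE mice every tissue but the liver therefore lacks BMAL1, as in KO. The driver of the liver restoration is not given in the sources used here.

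BMAL1, encoded by Arntl, pairs with CLOCK or NPAS2 and binds E-box DNA to switch on the Per and Cry genes, whose proteins then block the pair. The same pair drives the nuclear receptors REV-ERB-alpha and REV-ERB-beta (Nr1d1 and Nr1d2), which repress Arntl, Clock and Npas2 through elements that the activating ROR receptors also bind. A further limb consists of the D-box activators DBP, TEF and HLF and the D-box repressor NFIL3. In mouse liver these loops time genes of lipid, sugar and mitochondrial metabolism, and feeding, which mice do mostly in the dark, times others.

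The livers were well covered, but by their clock genes not all were nearest to their own harvest time. Depth was about 25.6 to 35.3 M reads (mega reads) per library, estimated from the value of 1 read at low levels. This estimate takes the deposited values as FPKM, a unit that was inferred. Albumin (Alb) had the highest level of all genes in these livers, at 23734.5 to 40853 FPKM. The targeted gene cannot check the genotype labels, because Arntl RNA was read in KO at a mean of 7.13 FPKM at ZT8 and 8.06 at ZT20. The BMAL1 target Dbp reached 36.2 ± 0.26 FPKM at ZT4 in Liver-RE and 43.1 ± 36.2 at ZT8 in WT, but no KO time had a mean above 2.15 (mean ± SD, n = 3 livers). At ZT20 the Dbp means were 2.25 in Liver-RE, 1.52 in WT and 1.26 in KO, and WT ZT8 replicate 2 lay within the range of the KO livers at 1.31 FPKM, so that Dbp does not check the label of every library.

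Over the 27 measured clock genes, each library was set against the mean of each Liver-RE harvest time, with itself left out. ZT20 replicate 1 was nearest to ZT0, with a root mean square log2 distance of 0.61 there and 0.96 from the other 2 ZT20 livers. This was the poorest nearest match of the 6 livers, and its Clock, Per2 and Per3 levels were near those of the other ZT20 livers. ZT20 replicates 2 and 3 were nearest to ZT16, at 0.33 and 0.54, against 0.62 and 0.59 from a ZT20 mean that holds replicate 1. ZT8 replicate 3 was nearest to ZT4, at 0.33 against 0.65 from its own time. ZT8 replicates 1 and 2 were nearest to ZT8. Whether the harvest time or label of these livers differs from the record was not tested. The main counts below, and the genes that carry them, are therefore also given without ZT20 replicate 1. Over all genes tested that liver was not the farthest from its group. The root mean square log2 distance from the other livers of the same time was 0.39 for ZT8 replicate 1. It was 0.36 for ZT20 replicate 1 and 0.37 for ZT20 replicate 2.

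Of the 11665 genes, 21 passed an adjusted p of 0.05 (0.18%), of which 19 were higher at ZT20 (0.163%) and 2 lower (0.0171%). The test was limma on log2(FPKM + 1) over the 18 Liver-RE libraries with Benjamini-Hochberg adjustment. All 21 had 3 ZT20 livers outside the range of the 3 ZT8 livers, which was the case for 724 genes higher (6.21%) and 504 lower (4.32%) among all genes tested. The genes that rose included Clock itself, the mitochondrial unfoldase gene Clpx, the cell cycle inhibitor gene Cdkn1a and Insig2, which restrains cholesterol synthesis. Those that fell were the clock repressor gene Per3 and the sulfotransferase gene Sult1c2. The median log2 fold change over all genes was 0.02. Fold changes here are on the log2(FPKM + 1) scale, which understates the change of genes near 1 FPKM.

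How many genes passed depended strongly on single livers. Without ZT20 replicate 1, 1 gene passed (0.00857%), namely Clock. All 21 kept their sign, but leaving out a liver cannot turn the sign of a gene whose livers do not overlap. All 21 also had an unadjusted p under 0.05 in limma, in a fit of livers by which they had been chosen. The number with an unadjusted p under 0.05 was 948 (8.13%) with that liver and 1018 (8.73%) without it. No gene passed without ZT8 replicate 1 or without ZT8 replicate 2, where 1120 and 749 genes had an unadjusted p under 0.05. The number was 12 without ZT8 replicate 3, 6 without ZT20 replicate 2 and 22 without ZT20 replicate 3. With ZT20 replicate 1 and ZT8 replicate 3 both left out, Steap3 passed and none of the 21 did.

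**Figure D1:**
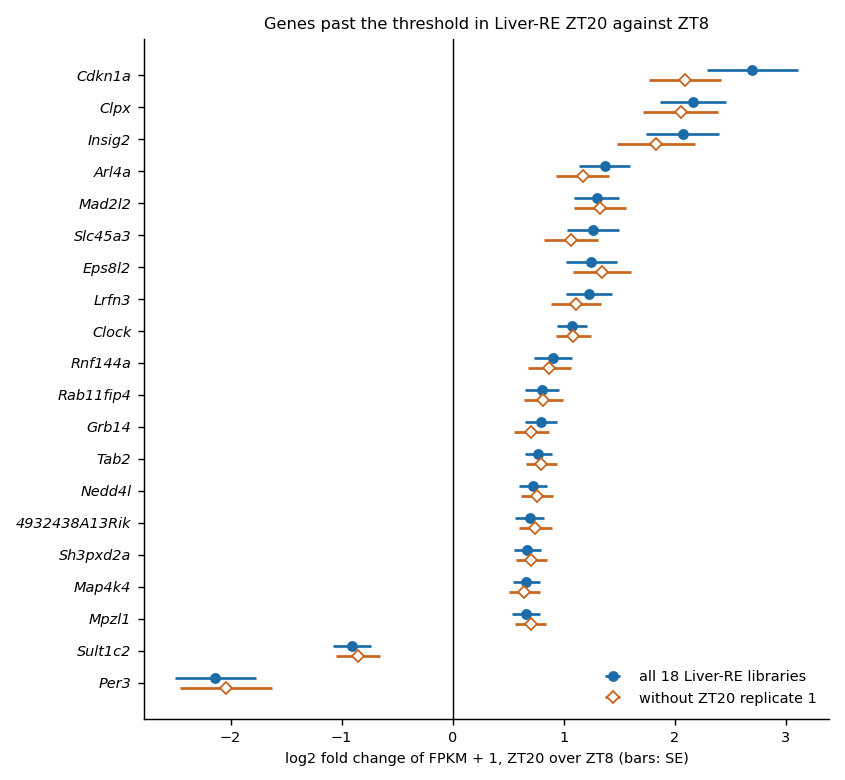
Log2 fold change of FPKM + 1 from ZT8 to ZT20 (x axis) of 20 of the 21 genes past the threshold (y axis), with bars of 1 standard error, for all 18 Liver-RE libraries (filled circles) and without ZT20 replicate 1 (open diamonds). The 18 plotted genes that rose lie between 0.66 and 2.70 and stay between 0.65 and 2.10 without that liver, and Per3 and Sult1c2 lie below 0 in both.

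Among the activators of the clock, Clock (chr5:76209868-76305603) gave the smallest p of all genes. It stood at 4.46, 4.82 and 5.07 FPKM in ZT8 replicates 1 to 3 and at 10.97, 11.04 and 11.5 FPKM in ZT20 replicates 1 to 3. Within each time the livers were close together, ZT20 replicate 1 included. The log2 fold change was 1.07 (SE 0.13, adjusted p = 0.0062, limma), or 2.34-fold between the mean FPKM values, and 1.09 without ZT20 replicate 1 (adjusted p = 0.0449). Arntl (chr7:113178471-113314126) had 0.894, 1.94 and 1.37 FPKM at ZT8 and 4.68, 8.47 and 10.6 FPKM at ZT20. All 3 ZT20 livers were above all 3 ZT8 livers, with replicate 1 the lowest of them. Its log2 fold change of 1.85 did not pass (adjusted p = 0.101; 0.113 without ZT20 replicate 1; limma). Npas2, the partner that can replace CLOCK, showed the same order at low levels, from 0.309 to 0.531 FPKM at ZT8 and from 0.972 to 1.797 at ZT20 (log2 difference 0.65, adjusted p = 0.397; 0.70 and 0.451 without ZT20 replicate 1; limma).

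In the arm of the repressors the livers of ZT20 split. Per3 (chr4:150997018-151044707) had 7.20, 9.19 and 9.92 FPKM at ZT8 and 0.933, 2.41 and 0.629 FPKM at ZT20. Every ZT20 liver was far below every ZT8 liver, and the log2 fold change was -2.14 (SE 0.36, adjusted p = 0.029; 0.113 without ZT20 replicate 1; limma). Per2 had 6.598, 11.5 and 3.84 FPKM at ZT8 and 1.03, 1.76 and 1.602 at ZT20, a log2 difference of -1.66 with adjusted p = 0.0745 (limma; -1.53 and 0.216 without ZT20 replicate 1). In contrast to these Per genes, Ciart, which encodes another inhibitor of CLOCK and BMAL1, was at 3.21 FPKM in ZT20 replicate 1 and at 0.146 and 0.136 in replicates 2 and 3, around ZT8 values of 2.55, 1.25 and 1.96. Its log2 difference was -0.70, and -1.33 without that liver (adjusted p = 0.691 and 0.113, limma).

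The same liver set the overlap of the other repressors. Per1 was at 4.75 FPKM in ZT20 replicate 1 and at 1.202 and 1.32 in replicates 2 and 3, against 1.44 to 3.30 at ZT8. Cry1 was at 3.63 FPKM in ZT20 replicate 1 and at 9.23 and 9.69 in replicates 2 and 3, against 2.36 to 6.44 at ZT8. Of the 6 repressor genes (Per1, Per2, Per3, Cry1, Cry2 and Ciart), the livers of the 2 times did not overlap for 2, both lower at ZT20. Without ZT20 replicate 1 they did not overlap for any, with 5 lower and Cry1 higher, where the shares over all genes were 6.74% lower and 14.5% higher. That liver was left out for its clock genes, these 6 among them. The wider separation without it follows in part from that choice and is a description only.

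Promoter sequence is shown for 4 clock genes, taken by smallest p in the Liver-RE test from those that hold an E-box, D-box or ROR element. Genes with too few bases outside the annotated gene were passed over. A motif was thus the condition for being shown, and its presence in all 4 is not a finding. Per3 and Tef did not overlap between the times, and Ciart and Cry1 were split by ZT20 replicate 1. Each run is the RefSeq sequence before the start, 5′ to 3′ on the strand of the gene (GRCm38.p6, the assembly that mm10 names), without bases inside the annotated gene. Capitals mark an E-box (CACGTG) in Tef, Ciart and Cry1 and D-boxes (TTANGTAA) in Per3. The runs lie at chr4:151044708-151044915 (Per3, minus strand), chr15:81802423-81802672 (Tef, plus strand), chr3:95882258-95882478 (Ciart, minus strand) and chr10:85185055-85185304 (Cry1, minus strand).
Per3: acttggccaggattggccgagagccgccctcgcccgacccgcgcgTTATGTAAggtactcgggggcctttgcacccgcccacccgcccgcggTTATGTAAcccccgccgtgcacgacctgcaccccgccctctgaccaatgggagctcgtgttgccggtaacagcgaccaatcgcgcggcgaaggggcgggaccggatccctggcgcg
Tef: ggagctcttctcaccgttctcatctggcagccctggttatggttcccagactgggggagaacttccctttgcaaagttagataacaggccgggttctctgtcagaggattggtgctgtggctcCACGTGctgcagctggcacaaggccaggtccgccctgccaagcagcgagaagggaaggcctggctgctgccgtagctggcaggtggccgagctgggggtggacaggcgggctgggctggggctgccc
Ciart: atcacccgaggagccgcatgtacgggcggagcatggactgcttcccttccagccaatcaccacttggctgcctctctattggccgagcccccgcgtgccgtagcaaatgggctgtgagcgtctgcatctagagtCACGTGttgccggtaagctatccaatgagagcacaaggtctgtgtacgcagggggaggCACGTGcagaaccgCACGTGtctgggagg
Cry1: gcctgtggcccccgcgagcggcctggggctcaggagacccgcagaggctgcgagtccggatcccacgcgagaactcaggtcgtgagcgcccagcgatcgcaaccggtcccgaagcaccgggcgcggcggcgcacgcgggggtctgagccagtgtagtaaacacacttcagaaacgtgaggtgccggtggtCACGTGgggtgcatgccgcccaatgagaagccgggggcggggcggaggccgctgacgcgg

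Per3 holds 2 D-boxes, 205 and 158 bases before the start listed for it, and no E-box in this window. Ciart holds 3 E-boxes, 116, 58 and 44 bases before the start, Cry1 holds 1 at 60 bases and Tef holds 1 at 127 bases. Of the 27 clock genes tested, 21 had a promoter in the table; in the 250 bases before the start, on either strand, 4 held an E-box (19%) and 2 a D-box (9.52%). Among the 9047 tested genes with a promoter in the table the shares were 8.8% and 1.44%, and among all 27025 promoters 6.05% and 2.11%. Of the 16 genes past the threshold that matched, 0 held the E-box, 2 the D-box and 1 the ROR element (TAGGTCA or TGGGTCA, in 4.34% of the tested genes and 5.38% of all promoters). A match of letters is a description of the sequence and not a measured binding site.

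Among the nuclear receptors of the second loop, Nr1d1 (REV-ERB-alpha) had 1.81, 1.35 and 9.15 FPKM at ZT8 and 10.8, 1.12 and 1.64 FPKM at ZT20. One liver of each time was high and 2 were low, and these were the livers nearest to ZT4 and to ZT0 over the clock genes, of which Nr1d1 is itself 1. In the Liver-RE series as a whole, the mean of Nr1d1 was highest at ZT4 (9.02 FPKM) and at ZT0 (6.66), and lowest at ZT16 (0.784). The log2 difference between ZT20 and ZT8 was -0.00 with all livers and -0.78 without ZT20 replicate 1 (adjusted p = 0.999 and 0.723, limma). Nr1d2 (REV-ERB-beta) did not overlap, with 17.0, 17.6 and 32.0 FPKM at ZT8 and 14.6, 8.37 and 3.85 at ZT20 (log2 difference -1.32, adjusted p = 0.332; -1.73 and 0.192 without ZT20 replicate 1; limma). The activating receptor gene Rora overlapped, from 7.44 to 13.2 FPKM at ZT8 and from 12.2 to 13.9 at ZT20.

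The widest gap of any clock gene was in the D-box factors. Dbp (chr7:45705100-45710203) had 17.3, 19.4 and 43.8 FPKM at ZT8 and 3.94, 2.13 and 0.680 FPKM at ZT20. The livers of the 2 times were well apart, but the spread within each was wide, and the log2 difference of -3.11 had an adjusted p of 0.0585 (limma; -3.48 and 0.113 without ZT20 replicate 1). Tef, a second D-box activator, had 31.4, 35.7 and 40.1 FPKM at ZT8 and 15.7, 15.3 and 8.17 at ZT20 (log2 difference -1.43, adjusted p = 0.118; -1.58 and 0.178 without ZT20 replicate 1; limma). Nfil3, the D-box repressor, was ordered the other way, with 4.08, 6.29 and 4.33 FPKM at ZT8 and 8.63, 12.2 and 12.6 at ZT20 (1.04, adjusted p = 0.227; 1.20 and 0.242 without that liver). Hlf overlapped, from 5.94 to 8.57 and from 5.36 to 6.61 FPKM.

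**Figure D2:**
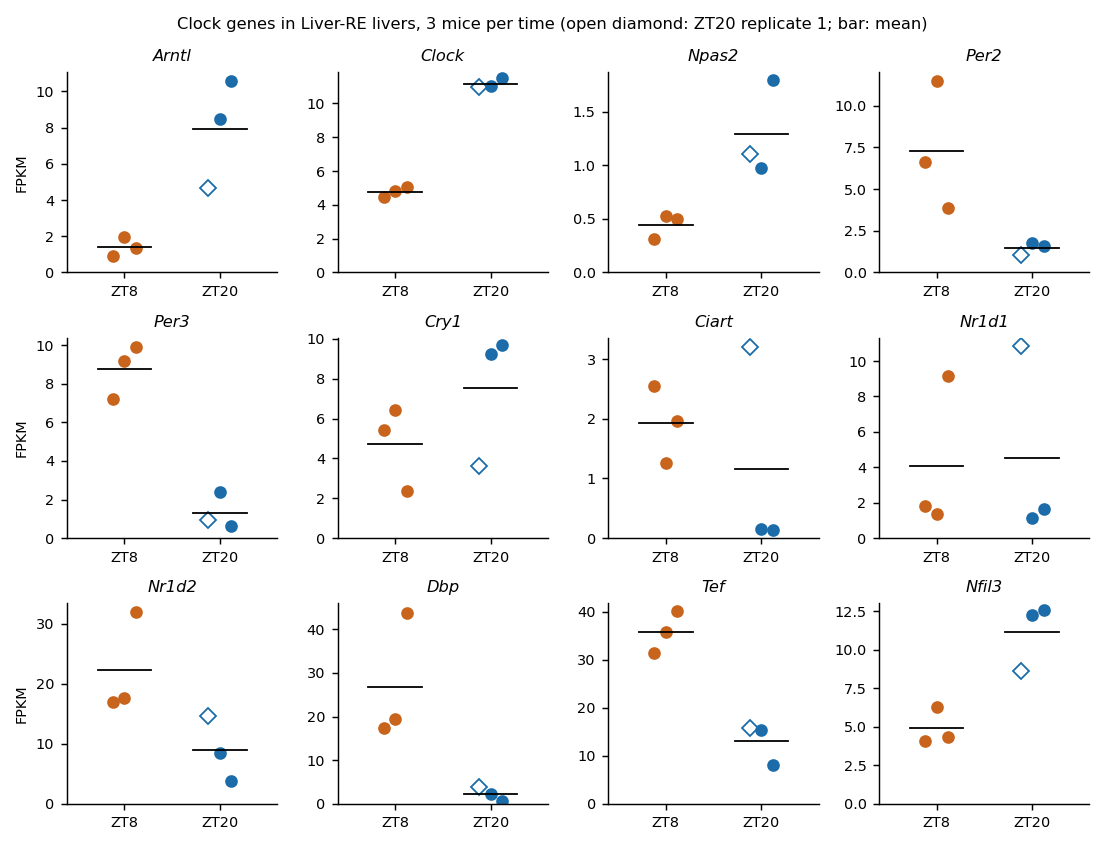
FPKM (y axis, from 0) of 12 clock genes in each Liver-RE liver at ZT8 (orange) and ZT20 (blue), with ZT20 replicate 1 as an open diamond and the mean as a bar. That liver sits with the other ZT20 livers for Clock and Per3, at 10.97 and 0.933 FPKM, and apart from them for Nr1d1, Ciart and Cry1, at 10.8, 3.21 and 3.63 FPKM.

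Among the modifiers of the clock, Bhlhe40, an E-box repressor, had 37.6, 42.2 and 32.0 FPKM at ZT8 and 17.97, 17.95 and 14.3 at ZT20 (log2 difference -1.11, adjusted p = 0.200; -1.16 and 0.324 without ZT20 replicate 1; limma). Usp2, a deubiquitinase whose RNA is a well-known clock output, had 7.002, 4.59 and 5.86 FPKM at ZT8 and 3.51, 1.54 and 0.881 at ZT20 (-1.28, adjusted p = 0.316; -1.63 and 0.207 without that liver). Noct, a NADP(H) phosphatase of the deadenylase family, was at 10.2 FPKM in ZT20 replicate 1 and at 0.939 and 2.70 in the others, around ZT8 values of 3.06 to 6.55. The kinases Csnk1d and Csnk1e, the F-box genes Fbxl21, Fbxw11 and Btrc, and Timeless overlapped, with log2 differences between -0.03 and 0.19. Bhlhe41 lay below the minimum level. In the fit of the 18 Liver-RE libraries, 1 of the 27 clock genes rose and 1 fell. In a fit over all 54 libraries, Arntl, Per2, Dbp and Tef passed in Liver-RE besides Clock and Per3. The livers did not overlap for 4 higher (Arntl, Clock, Npas2 and Nfil3, against 6.21% of all genes) and 7 lower (4.32%). The counts without ZT20 replicate 1 were 5 higher (all genes 14.5%) and 12 lower (6.74%), but that liver was left out for these same genes.

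The largest fold change of all genes past the threshold was that of Cdkn1a (chr17:29090979-29100722), which encodes the cell cycle inhibitor p21. It had 0.528, 0.414 and 0.361 FPKM at ZT8 and 20.5, 5.87 and 4.46 FPKM at ZT20. All ZT20 livers were high, and replicate 1 was the highest by far. The log2 fold change was 2.70 (SE 0.41, adjusted p = 0.0202, limma) and 2.10 without that liver (adjusted p = 0.0599). On average Cdkn1a stayed at or below 1.36 FPKM from ZT0 to ZT12, and was at 3.19 at ZT16.

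Clpx (chr9:65294251-65330658), which encodes the unfoldase that feeds the mitochondrial ClpP protease, had 21.5, 25.3 and 25.2 FPKM at ZT8 and 129.6, 92.2 and 114 FPKM at ZT20. The rise in its mean FPKM was 4.67-fold, with a log2 fold change of 2.17 (SE 0.30, adjusted p = 0.0102; 0.0731 without ZT20 replicate 1; limma). The Liver-RE means climbed from 24.0 ± 2.2 FPKM at ZT8 to 61.4 ± 27 at ZT12, 80.9 ± 22 at ZT16 and 112 ± 19 at ZT20, and then stood at 64.1 ± 21 at ZT0 and 34.6 ± 2.6 at ZT4 (SD, n = 3). The lowest and highest times were thus those compared. Insig2 (chr1:121304353-121332662), whose protein holds the SREBP escort SCAP in the endoplasmic reticulum, had 16.6, 19.02 and 35.6 FPKM at ZT8 and 137, 88.0 and 77.1 at ZT20 (log2 fold change 2.07, SE 0.33, adjusted p = 0.0202; 0.113 without ZT20 replicate 1; limma). The highest ZT8 liver was replicate 3, which was nearest to ZT4 by its clock genes, and the highest ZT20 liver was replicate 1.

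Several regulators of signalling rose by less but with little spread. Tab2 (chr10:7905648-7956255), an adaptor of the TAK1 kinase, had 6.09, 6.76 and 7.68 FPKM at ZT8 and 11.9, 14.2 and 11.2 at ZT20 (log2 fold change 0.77, SE 0.12, adjusted p = 0.0202, limma). Mad2l2 (chr4:148130158-148145704), whose product takes part in DNA repair, had 1.89, 2.51 and 3.41 FPKM at ZT8 and 7.40, 6.59 and 9.42 at ZT20 (1.30, SE 0.20, adjusted p = 0.0202, limma). Grb14 (chr2:64912476-65022766), an adaptor that inhibits the insulin receptor, had 8.83, 10.8 and 12.5 FPKM at ZT8 and 21.7, 18.1 and 17.9 at ZT20 (0.80, SE 0.14, adjusted p = 0.0394, limma). In each of the 3 genes the lowest ZT20 liver was above the highest ZT8 liver. The log2 fold changes without ZT20 replicate 1 were 0.80 for Tab2 and 1.32 for Mad2l2 (adjusted p = 0.0989 for both, limma), and 0.71 for Grb14 (adjusted p = 0.147).

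Arl4a, a small GTPase of the ARF family, had 4.44, 3.58 and 4.65 FPKM at ZT8 and 16.7, 12.9 and 8.87 at ZT20 (log2 fold change 1.37, adjusted p = 0.029, limma). The ubiquitin ligase genes Nedd4l and Rnf144a rose by log2 fold changes of 0.72 and 0.90, the kinase gene Map4k4 by 0.66 and the Rab11 effector gene Rab11fip4 by 0.80. Genes tied to the membrane or the actin skeleton among those that rose were Lrfn3 (1.23), Eps8l2 (1.25), Sh3pxd2a (0.67), Mpzl1 (0.66) and Slc45a3 (1.26). Another was 4932438A13Rik (0.70). Their adjusted p-values lay between 0.029 and 0.0426, and none passed without ZT20 replicate 1 (limma).

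Sult1c2 (chr17:53829637-53845958), a cytosolic sulfotransferase gene, was the other gene that fell. It had 7.35, 8.11 and 6.38 FPKM at ZT8 and 3.08, 3.54 and 3.58 FPKM at ZT20, with tight livers at both times. The log2 fold change was -0.91 (SE 0.17, adjusted p = 0.0444; 0.173 without ZT20 replicate 1; limma).

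The means of the other 4 Liver-RE harvest times did not enter the contrast, although the spread within those times entered the test. Of the 19 that rose, 17 had a higher mean at ZT16 than at ZT4, which was the case for 33.4% of all genes tested; the exceptions were Mad2l2 and Grb14. The highest group mean of the day was at ZT20 for 14 of them and at ZT16 for 5. The lowest was at ZT8 for 16 and at ZT4 for 3, namely Cdkn1a, Arl4a and Slc45a3. The position of the extremes leans on the compared groups themselves and is a description.

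**Figure D3:**
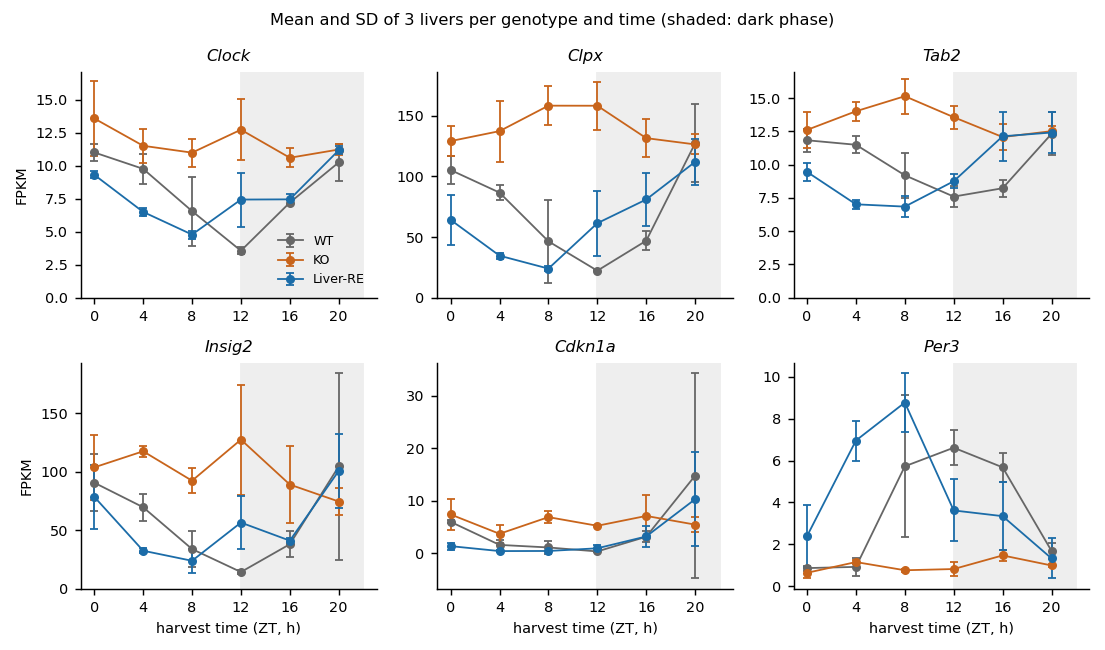
Mean FPKM (y axis) with SD of 3 livers by harvest time (x axis, ZT in hours; dark phase shaded) in WT (grey), KO (orange) and Liver-RE (blue). Clpx in Liver-RE runs from 24.0 at ZT8 to 112 at ZT20, while KO stays between 126 and 158, and Per3 in KO stays at or below 1.46.

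The same comparison was made in WT and KO livers, which share no library with it, in 1 limma fit over all 54 libraries. In WT, 215 genes passed (1.84%), 48 higher (0.411%) and 167 lower (1.43%). In that same fit 80 genes passed in Liver-RE, 52 higher and 28 lower. Listed genes among them that had not passed in the fit of 18 libraries were Arntl, Per2, Dbp, Tef, Gpi1, Pdk4, Nmrk1 and Wee1. The Liver-RE count given earlier is from the fit of 18 libraries and is not matched to these counts. In a fit of the WT libraries alone, 112 genes passed in WT. WT ZT8 replicate 2 stood apart from its group: its Dbp was at 1.31 FPKM where the others had 61.9 and 66.0. Without it 578 genes passed (4.95%) and 2363 had an unadjusted p under 0.05 (20.3%). None passed without WT ZT8 replicate 1 or without WT ZT8 replicate 3, where 1266 and 1523 had an unadjusted p under 0.05. In KO no gene passed, although 864 had an unadjusted p under 0.05 (7.41%).

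Of the 19 genes that rose in Liver-RE, 18 had a log2 fold change above 0 in WT, where 35.1% of all genes did, and 9 passed in WT (0.411% of all genes). Those were Clock, Clpx, Cdkn1a, Insig2, Arl4a, Lrfn3, Map4k4, Slc45a3 and Rnf144a. Without WT ZT8 replicate 2, 15 of the 19 passed in WT, where 1.44% of all genes did. The exception in direction was Grb14, at -0.23 in WT. In KO, 9 of the 19 were above 0, where 63.8% of all genes were, and none passed in limma, with 2 at an unadjusted p under 0.05. Per3 fell in WT as well (-1.20, adjusted p = 0.0273, limma) and was at 0.18 in KO (adjusted p = 0.929). Sult1c2 was at -0.56 in WT and -0.52 in KO (unadjusted p = 0.0361 and 0.0491, adjusted p = 0.248 and 0.670, limma). Its difference between Liver-RE and KO was -0.38 and did not pass (adjusted p = 0.929, limma).

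**Figure D4:**
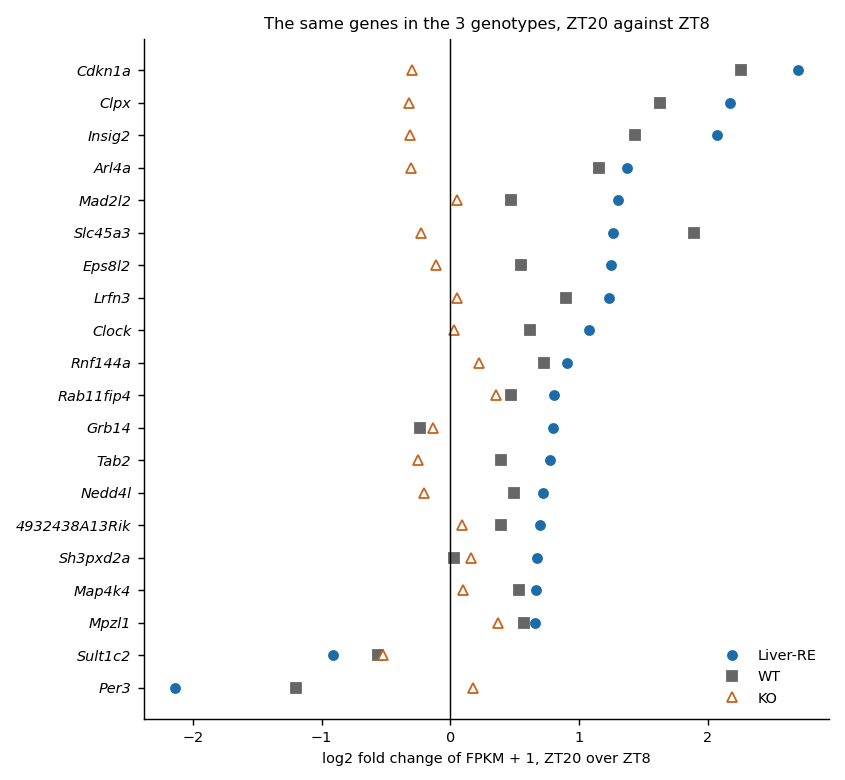
Log2 fold change of FPKM + 1 from ZT8 to ZT20 (x axis) of 20 of the 21 genes past the threshold in Liver-RE (y axis), for Liver-RE (circles), WT (squares) and KO (open triangles). In KO the 18 plotted genes that rose in Liver-RE lie between -0.32 and 0.37, and in WT all but Grb14 lie above 0.

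The difference between Liver-RE and KO was tested directly, in the fit over all libraries, and passed for 6 genes (0.0514%), 5 of them among the 21. That contrast contains the Liver-RE livers by which the 21 were chosen. Tab2 gave the smallest p, with a difference of 1.03 on the log2 scale (adjusted p = 0.000937, limma). Tab2 was at 15.1 ± 1.3 FPKM at ZT8 and 12.5 ± 0.36 at ZT20 in KO, so that the Liver-RE mean of 6.84 at ZT8 was far below KO and that of 12.4 at ZT20 was close to it. Clpx, with a difference of 2.49 (adjusted p = 0.00109, limma), was at 158 ± 16 FPKM at ZT8 and 126 ± 8.3 at ZT20 in KO. Its Liver-RE mean of 24.0 ± 2.2 at ZT8 was again far below KO, and that of 112 ± 19 at ZT20 was within its SD of KO.

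Another 4 genes passed this test. Clock (difference 1.04, adjusted p = 0.0366, limma) was at 10.99 FPKM at ZT8 and 11.23 at ZT20 in KO, against 4.78 and 11.2 in Liver-RE. Eps8l2 (1.36, adjusted p = 0.0366) was at 20.1 and 18.9 in KO, against 5.37 and 14.01. Per3 (-2.31, adjusted p = 0.0068) was at 0.755 and 0.984 in KO, against 8.77 and 1.32. Clock and Per3 in Liver-RE were thus away from KO at ZT8 and within 1 FPKM of it at ZT20, whereas Eps8l2 stayed below KO at both times. The predicted gene Gm14403 completed the 6, with a difference of -1.85 (adjusted p = 0.0185, limma). Its levels were 8.51 and 3.57 FPKM in Liver-RE and 2.65 and 5.31 in KO. Without ZT20 replicate 1, 4 genes passed (0.0343%), namely Per3, Eps8l2, Clpx and Tab2.

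The difference between Liver-RE and WT passed for 3 genes (0.0257%), none of them among the 21, of which 7 had an unadjusted p under 0.05 in this test (all genes 9.51%). Steap3, an iron reductase gene, had 1.53, 2.55 and 3.84 FPKM at ZT8 and 4.17, 5.76 and 5.45 at ZT20 in Liver-RE, with means of 4.66 and 3.25 in WT (difference 1.197, adjusted p = 0.0305, limma). Selenoi, an enzyme of phosphatidylethanolamine synthesis, had 8.67, 10.4 and 8.76 FPKM at ZT8 and 13.4, 13.4 and 18.3 at ZT20, with WT means of 13.04 and 10.6 (0.91, adjusted p = 0.0496, limma). Cnot1, the scaffold of the CCR4-NOT deadenylase, had 13.1, 15.7 and 16.3 FPKM at ZT8 and 17.4, 18.8 and 18.1 at ZT20, with WT means of 19.5 and 15.6 (0.56, adjusted p = 0.0496, limma). In the fit of the 18 Liver-RE libraries, the change from ZT8 to ZT20 passed for none of the 3 (adjusted p = 0.101, 0.101 and 0.480, limma). In the fit over all 54 libraries, from which the difference comes, that change passed for Steap3 and Selenoi but not for Cnot1. The number was again 3 without ZT20 replicate 1, and 19 without WT ZT8 replicate 2. With both left out, 13 genes passed (0.111%), all with a positive difference, Nr1d1 among them at 2.83 (adjusted p = 0.0120, limma). The median difference over all genes was then 0.13. Both livers had been set apart by clock genes, and Nr1d1 is a clock gene. Its p without them therefore draws on the kind of values by which they were chosen, and is no independent test.

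Metabolic genes were described by lists, with the number of members whose livers did not overlap between the times. Of the 24 genes of fatty acid and triglyceride synthesis, none passed in limma (smallest adjusted p = 0.135, for Dgat2). At an unadjusted p under 0.05, 9 were lower (all genes 3.15%) and 2 higher (4.98%). By their livers, 10 did not overlap and were lower at ZT20 (all genes 4.32%), and 1 was higher without overlap (6.21%). Elovl6, which elongates palmitate, had 202.5, 254.5 and 138 FPKM at ZT8 and 29.8, 60.7 and 49.7 at ZT20 (log2 difference -2.08, adjusted p = 0.200, limma). Fasn, the fatty acid synthase, had 182, 539.6 and 241 FPKM at ZT8 and 78.2, 82.5 and 174 at ZT20 (-1.46, adjusted p = 0.428). Thrsp, a lipogenic regulator, had 736, 787 and 949.8 FPKM at ZT8 and 261, 179 and 429 at ZT20 (-1.59, adjusted p = 0.399). The log2 differences of Elovl6, Fasn and Thrsp were -1.79, -1.25 and -1.56 without ZT20 replicate 1. The others lower without overlap were Acly, Acaca, Scd1, Me1, Dgat2, Mid1ip1 and Pnpla3, and the livers overlapped for 13 of the 24.

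Elovl3 was the member ordered the other way, with 0.825, 0.600 and 1.14 FPKM at ZT8 and 5.53, 2.40 and 6.05 at ZT20 (log2 difference 1.55, adjusted p = 0.437, limma; 1.41 without ZT20 replicate 1). The median log2 difference of the list was -0.57 in Liver-RE and -0.71 without ZT20 replicate 1, where again 10 members were lower without overlap (all genes 6.74%). It was -0.41 in WT, where 2 members were lower without overlap (all genes 16.5%) and none higher (4.62%). In KO the median was 0.54, and 14 of the 24 were higher without overlap (all genes 12.4%) and none lower (3.27%). No member passed the test of the difference from KO (smallest adjusted p = 0.130, limma), and 12 had an unadjusted p under 0.05 there (all genes 6.39%). Without ZT8 replicate 1, the count of lower members in Liver-RE was 15 (all genes 19.2%).

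Of the 28 genes of fatty acid oxidation and PPAR-alpha targets none passed (smallest adjusted p = 0.147, for Cyp4a31, limma), with 8 higher at an unadjusted p under 0.05 (all genes 4.98%). By their livers 7 were higher at ZT20 without overlap (all genes 6.21%) and none lower, while 21 overlapped, and the median log2 difference was 0.37. The omega-hydroxylase gene Cyp4a14 had 195, 50.3 and 262 FPKM at ZT8 and 796, 382 and 408 at ZT20, and Cyp4a10 had 190.0, 49.7 and 181 and then 426, 289.5 and 315. For both genes ZT8 replicate 2 was the lowest and ZT20 replicate 1 the highest. The Cyp4a genes are near copies of each other, and how reads were shared between them is not given in the sources used here. Acadl, a mitochondrial acyl-CoA dehydrogenase gene, had 69.2, 58.1 and 66.7 FPKM at ZT8 and 89.5, 88.9 and 83.8 at ZT20 (0.43, adjusted p = 0.229, limma). Cpt2, Cyp4a31 and Vnn1 were also among the 7.

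The count of 7 for fatty acid oxidation was 9 without ZT20 replicate 1 (all genes 14.5%). It was 13 without ZT8 replicate 1 (7.3%), 12 without ZT8 replicate 3 (15.7%), 16 without ZT20 replicate 3 (9.94%) and 3 after quantile normalization (6.7%). In the WT livers the list median was -0.22, and in the KO livers it was -0.08.

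**Figure D5:**
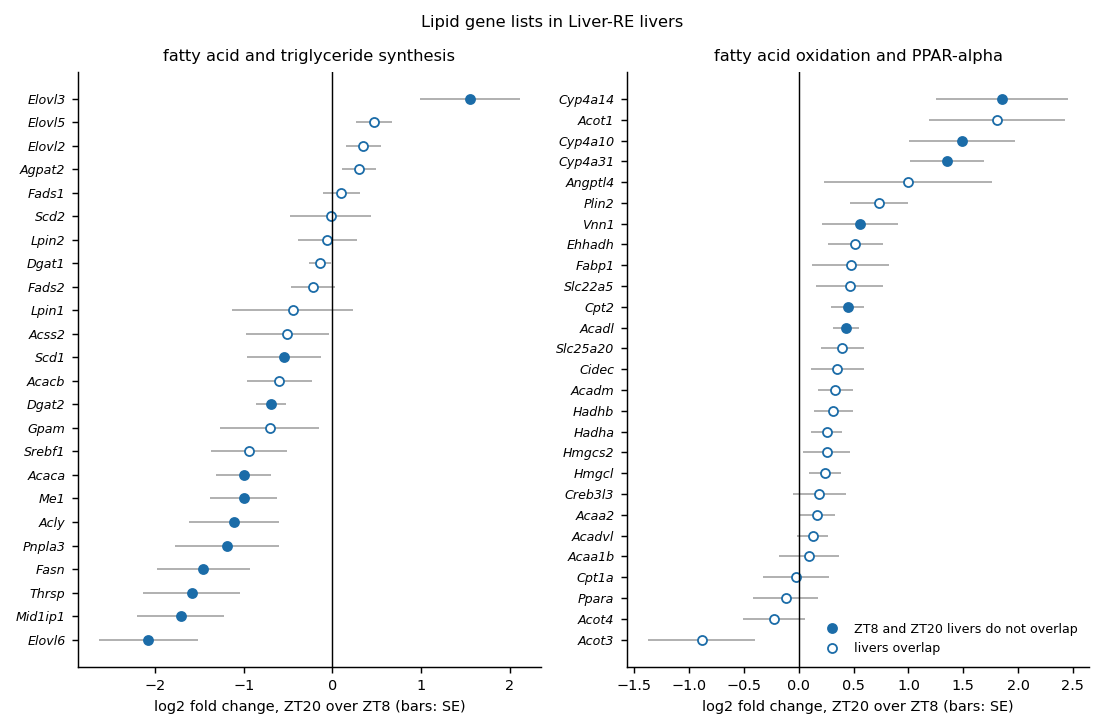
Log2 fold change of FPKM + 1 from ZT8 to ZT20 in Liver-RE (x axis, bars of 1 standard error) of the 24 genes of fatty acid and triglyceride synthesis (left) and of 27 of the 28 of fatty acid oxidation and PPAR-alpha (right), with filled points where the livers of the times do not overlap. Elovl6 lies lowest on the left at -2.08 and Cyp4a14 highest on the right at 1.85, and no gene of either list passed the test.

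In sugar metabolism none of 22 genes passed in limma, with 8 lower at an unadjusted p under 0.05 (all genes 3.15%), and 5 were lower without overlap (4.32%) and none higher (6.21%). Pklr, the liver pyruvate kinase, had 202.5, 183 and 131 FPKM at ZT8 and 58.8, 88.2 and 62.6 at ZT20 (log2 difference -1.29, adjusted p = 0.175, limma), and the others were Slc2a2, Gpi1, Slc37a4 and Fbp1. The count was 7 without ZT20 replicate 1 (all genes 6.74%), 8 without ZT8 replicate 1 (19.2%) and 8 after quantile normalization (7.24%). Of 16 glycogen genes, Gys2, Gbe1 and Ugp2, which build glycogen, were lower without overlap (all genes 4.32%) and Gsk3b higher (6.21%). Ugp2 had 170.1, 170.2 and 208 FPKM at ZT8 and 97.1, 97.1 and 121 at ZT20 (-0.79, adjusted p = 0.110, limma). It passed after quantile normalization, and with the 20 highest genes left out and the rest rescaled. Without ZT20 replicate 1, 3 glycogen genes were lower (all genes 6.74%) and 2 higher (14.5%), and without ZT8 replicate 1, 5 were lower (19.2%).

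Besides Cdkn1a, the insulin and FOXO list held Pdk4, the kinase that shuts off pyruvate oxidation in fasting, at 1.79, 3.81 and 3.94 FPKM at ZT8 and 17.7, 27.6 and 8.32 at ZT20 (log2 difference 2.08, adjusted p = 0.144, limma). Igfbp1 overlapped, with 11.3, 13.8 and 58.4 FPKM at ZT8 and 172, 102 and 51.7 at ZT20 (2.15, adjusted p = 0.465). The high ZT8 value was again that of replicate 3. Gadd45a, a growth arrest gene, was the 1 member of that list lower without overlap (all genes 4.32%), and 2 were higher (6.21%). Of its 22 members, 4 were lower (all genes 6.74%) and 3 higher (14.5%) without ZT20 replicate 1. In the cholesterol list of 26 genes, Insig2 rose and no other member passed. Without overlap, 1 was higher (Insig2; all genes 6.21%) and 1 lower (4.32%). The median log2 difference of this list was -0.09, and 0.08 without ZT20 replicate 1, where again 1 was higher (all genes 14.5%) and 1 lower (6.74%). Without ZT20 replicate 3, 8 were lower (all genes 9.18%).

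In the acute phase list none of 21 genes passed in limma, and 5 were higher at an unadjusted p under 0.05 (all genes 4.98%). Higher without overlap were 6 (all genes 6.21%), the fibrinogen chains Fga, Fgb and Fgg together with Itih3, Apcs and Crp, and the iron hormone gene Hamp was lower (4.32%). Fga had 901, 1174 and 1112 FPKM at ZT8 and 1547, 1539 and 1633 at ZT20 (log2 difference 0.57, adjusted p = 0.398, limma). Without ZT20 replicate 1, 6 members were higher (all genes 14.5%) and 2 lower (6.74%). Without ZT8 replicate 1, 6 were lower (all genes 19.2%), and 9 were higher without ZT8 replicate 3 (15.7%) and without ZT20 replicate 2 (9.34%). The summed level of 14 hepatocyte markers was 40518 to 57869 FPKM at ZT8 and 52643 to 64617 at ZT20. That list holds Fgb too, and its part in the acute phase values was not tested. Fewer cells of a type and less RNA per cell cannot be told apart in whole liver.

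Among the remaining lists, no member passed other than Cdkn1a, which the glucocorticoid and cell cycle lists also hold. Without overlap, 1 member was higher in bile acid synthesis (Hsd3b7), in heme metabolism (Cpox), in the amino acid and urea cycle list (Glud1) and in the glucocorticoid list (Cdkn1a). In turn 1 was lower in NAD metabolism (Nampt), heat shock genes (Hspa8), the interferon response (Ifi35) and autophagy (Tfeb). Ribosome biogenesis had 2 lower (Rrp9 and Nip7), and the actin list 1 each way (Myl9 and Ier2). The unfolded protein list had 2 higher (Atf6 and Chac1) and 1 lower (Ern1), the cell cycle list 2 higher (Cdkn1a and Gadd45b) and 1 lower (Wee1), and the xenobiotic list of 29 none. With all 6 livers, counts of 1 or 2 in lists of this size are near the shares over all genes, 6.21% higher and 4.32% lower. Some counts moved with single livers. Without ZT20 replicate 1, 11 of the 24 unfolded protein genes and 6 of the 15 actin genes were higher (all genes 14.5%), while the other lists of this paragraph had 0 to 3 members either way. Without ZT8 replicate 3, 5 actin genes and 8 of the 29 xenobiotic genes were higher (all genes 15.7%), and 11 of 23 ribosome biogenesis and 7 of 16 heat shock genes lower (7.28%). Without ZT8 replicate 1, 14 of 21 interferon response and 8 of 23 autophagy genes were lower (all genes 19.2%). Without ZT20 replicate 3, 6 of 18 cell cycle genes were higher (all genes 9.94%). Without ZT20 replicate 2, 5 interferon response and 7 ribosome biogenesis genes were lower (7.81%), and 6 of 28 amino acid and urea cycle genes higher (9.34%). Of the 262 genes in these lists, 21 had an unadjusted p under 0.05, against 8.13% of all genes. Hspa8, the constitutive heat shock cognate, had 129.6, 166 and 88.2 FPKM at ZT8 and 64.1, 74.6 and 41.4 at ZT20 (log2 difference -1.07, adjusted p = 0.343, limma). Nampt, which limits NAD synthesis, had 31.9, 36.1 and 33.2 and then 15.8, 26.6 and 21.3 FPKM (-0.67, adjusted p = 0.414).

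Marker sums of other cells of the liver overlapped between the times, and those of adipocytes and pancreas did not. Summed Kupffer cell and macrophage markers were at 268 to 546 FPKM at ZT8 and 290.4 to 362 at ZT20, endothelial markers at 138 to 211 and 165 to 189.9, and stellate cell markers at 151 to 214 and 173 to 207. The cholangiocyte, neutrophil, lymphocyte and red cell sums also overlapped. The adipocyte sum was 523 to 838 FPKM at ZT8 and 847 to 969 at ZT20, with Car3, which hepatocytes also make, higher without overlap and Adipoq at 0 in all 6 libraries. The pancreas acinar sum was 4.03 to 5.15 and 5.68 to 6.80 FPKM, with Cpa1, Pnlip and Cel at 0.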

How the data were processed

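RNA of 54 mouse livers was sequenced from 1 end, as stranded libraries of total RNA depleted of ribosomal RNA, per the labels' protocols. CASAVA 1.8.2 and mm10 stand in the submitters' processing notes with no role; the aligner, quantifier, annotation and any use of strand are not given there, so overlapping antisense genes cannot be told apart. The values are those the authors deposited, and were taken here as FPKM, that is, reads scaled to gene length and library depth. No header names this unit; it was inferred from the steps of low values, of which 3.43 to 4.99% lay at the commonest step after multiplication by transcript length and 1.06 to 1.47% without it (3223 genes with a single transcript). TPM with genes removed is also possible. No count model was used.

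Values were tested as log2(FPKM + 1) with limma 3.58.1 (R 4.3.3, empirical Bayes with a trend), with a minimum mean of 0.5 over the 6 libraries, which 11665 genes reached and 6414 did not. The Liver-RE test used 18 libraries with a mean per harvest time (12 residual degrees of freedom), and the tests of WT, KO and differences used all 54 (36). P-values were adjusted by Benjamini-Hochberg over all genes, with a threshold of 0.05. The design gives 3 mice per group. Livers did not overlap where the 3 of one time all lay beyond the 3 of the other. No column duplicated another.

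The comparison, the gene lists and the rule for named genes were chosen with earlier results of these data known. Named were all measured clock genes, all genes past the threshold (up to 12 each way with a mean of at least 1 and no overlap), up to 4 members per list by p, and the 8 smallest p-values per difference test; the text leaves out some, and names others, such as further called genes and members without overlap, after their values were seen. Some genes that the rule takes are withheld from the text and figures, though counted. The functions were tested on simulated data. Promoters and positions are RefSeq on GRCm38.p6, matched by symbol. Figures were drawn in Python 3.11.15 (matplotlib 3.10.9, pandas 2.3.3, numpy 2.4.6).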

Additional observations from a re-analysis of the deposited data

Results flagged for a closer look

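For 9 genes the log2 change from ZT8 to ZT20 in Liver-RE differed from that in another genotype by limma's test of the difference itself. Against WT these were Steap3 (1.197, SE 0.22, adjusted p = 0.0305), Selenoi (0.91, SE 0.18, adjusted p = 0.0496) and Cnot1 (0.56, SE 0.11, adjusted p = 0.0496). Against KO they were Tab2 (1.03, SE 0.16, adjusted p = 0.000937), Clpx (2.49, SE 0.40, adjusted p = 0.00109), Per3 (-2.31, SE 0.41, adjusted p = 0.0068), Gm14403 (-1.85, SE 0.36, adjusted p = 0.0185), Clock (1.04, SE 0.21, adjusted p = 0.0366) and Eps8l2 (1.36, SE 0.28, adjusted p = 0.0366). In all 6 genes that differed from KO, the 3 Liver-RE livers of one time lay beyond the 3 of the other. Over all genes this held for 6.21% higher and 4.32% lower at ZT20. The test of the difference contains these same livers, so their separation is no further support.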

How the results depend on the processing

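Of 101 named genes under up to 17 alternatives each, 7 turned direction in at least 1. Per1, Nr1d1 and Noct were each split by ZT20 replicate 1. With each library left out, the log2 difference of Nr1d1 ran from -0.78 (without ZT20 replicate 1) to 0.66 (without ZT8 replicate 3), with 0.46 and 0.30 without ZT20 replicates 2 and 3, and it was 0.028 with the 20 highest genes left out and the rest rescaled. Per1 ran from -0.62 to 0.077, with 0.039 without ZT20 replicate 3, and Noct from -1.16 to 0.11. The others are near 0: Timeless ran from -0.042 to 0.22, Btrc from -0.036 to 0.18, Fbxl21 from -0.038 to 0.42, and Fbxw11 from -0.14 to 0.049, with 0.070 without ZT8 replicate 3 and ZT20 replicate 1.

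The 21 genes of Liver-RE became 1 (Clpx) with only the 6 libraries, 80 with all 54, 3 with only 5 libraries (without ZT20 replicate 1), 0 to 22 with each library left out, 1 without ZT20 replicate 1 and ZT8 replicate 3, 7 with no filter and 12 (8 higher and 4 lower) with quantile normalization. The deviations of same-numbered livers had correlations of 0.062, -0.0092 and 0.093. Livers of unlike number had correlations from -0.171 to 0.093. With 3 livers a time these values cannot tell whether the numbers pair the livers. With the replicate number as a block the count was 10. The 215 of WT became 112 with WT alone, 111 (54 higher and 57 lower) with quantile normalization, 79 (49 and 30) after rescaling and 0 to 578 with each library left out, and the 0 of KO became 2 with no filter. The 3 that differed from WT became 0 with those genotypes alone, 13 without ZT20 replicate 1 and WT ZT8 replicate 2, 1 with a pseudocount of 0.1, 5 with no filter, 1 with quantile normalization, 0 after rescaling, 1 with robust empirical Bayes and 0 to 19 with each library left out. The 6 that differed from KO became 13 with those genotypes alone, with quantile normalization and after rescaling, 11 without ZT20 replicate 1 and ZT8 replicate 3, and 3 to 20 with each library left out. The cause of these shifts was not tested, beyond the fewer libraries or the changed number of genes in some. The fits of 5 libraries, those without a pair of Liver-RE livers and the overlap counts with a library left out were added after the data were seen. The 21 called genes kept their direction under each alternative that held them, with 17 of them in the fit with a mean of at least 2. Where livers were left out, this was fixed by the lack of overlap. With 3 livers a time, the spread between livers sets what can be called; depth per gene is not known exactly, so no counting error is given.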
